A study of Mus musculus with 2 samples.

Results

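The 10 chemokine genes Ccl1, Ccl3, Ccl4, Ccl5, Xcl1, Ccl2, Ccl8, Ccl22, Cxcl13 and Cxcl3 were taken by name from the 27635 genes of a single-cell mRNA count table. They were read in 11318 of 12016 cell barcodes, those with at least 500 detected genes and at most 25% of their counts from mitochondrial genes. All 10 genes had counts, with 2199 for Ccl22 at the low end and 897106 for Ccl5 at the high end. The mice carried subcutaneous B16F10 tumours, a transplanted melanoma line, which were taken on day 14. CD3-bearing cells were enriched by magnetic positive selection after a Percoll step, and about 20000 cells were loaded into 1 BD Rhapsody microwell capture and amplified by TAS-Seq. Nr4a KO cells (Nr4a1 and Nr4a2, per the series title) and WT cells were pooled under 6 hashtag antibodies. The labels used here do not say which hashtag marks which genotype, how or in which cells the Nr4a genes were deleted, or the age of the mice, so the hashtags stand here for samples whose genotype is not known, and no genotype comparison was made. All groups share the tumour line and the CD3 selection, and the questions asked were which cell class and which T cell state carried the mRNA of each chemokine.

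Chemokines are small secreted proteins that attract leukocytes through G protein-coupled receptors, and families are named by the spacing of the first cysteines of the mature protein. Ccl3, Ccl4 and Ccl5 are made by activated T cells and myeloid cells, and Xcl1 recruits cross-presenting dendritic cells through Xcr1. Ccl2 draws Ccr2-bearing monocytes into tumours, Ccl22 draws Ccr4-bearing regulatory T cells, Cxcl13 acts on Cxcr5, and Cxcl3 acts on Cxcr2 of neutrophils. Ccl1, and in the mouse also Ccl8, signal through Ccr8.

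The family of each gene can be read in its coding sequence, and a 36-base stretch around the codons of the first cysteines is shown for 9 of the genes because the receptors above follow these families. The stretches come from the GENCODE M21 transcripts of GRCm38, run 5′ to 3′ in the sense direction, and carry the cysteine codons in capitals. Capitals stand side by side in the 6 CC genes shown, are parted by a lower-case codon in the 2 CXC genes, and stand alone in Xcl1.
Ccl4: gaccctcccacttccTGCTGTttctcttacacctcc
Ccl5: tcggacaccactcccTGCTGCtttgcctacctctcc
Ccl1: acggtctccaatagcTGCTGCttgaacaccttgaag
Xcl1: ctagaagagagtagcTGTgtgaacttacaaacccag
Ccl2: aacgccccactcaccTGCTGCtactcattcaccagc
Ccl8: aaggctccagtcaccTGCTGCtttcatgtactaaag
Ccl22: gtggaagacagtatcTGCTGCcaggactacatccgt
Cxcl13: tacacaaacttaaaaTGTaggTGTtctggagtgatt
Cxcl3: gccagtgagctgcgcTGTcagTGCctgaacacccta
By the coordinates of their coding transcripts in GRCm38, the CC genes Ccl2 (plus strand, chr11:82035571-82037453), Ccl8 (plus, chr11:82115185-82116799), Ccl1 (minus, chr11:82176657-82179812), Ccl5 (minus, chr11:83525778-83530518), Ccl3 (minus, chr11:83647844-83649355) and Ccl4 (plus, chr11:83662584-83664683) lie on chromosome 11. Ccl22 (plus, chr8:94745590-94751699) lies on chromosome 8, Cxcl3 (plus, chr5:90786103-90788093) and Cxcl13 (plus, chr5:95956951-95961068) on chromosome 5 and Xcl1 (minus, chr1:164931644-164935527) on chromosome 1. Each coding transcript has 3 exons, except those of Cxcl13 and Cxcl3, which have 4. No 50-base stretch of 8 of the genes occurred in a transcript of another gene. For Xcl1 10.8% of the 50-base stretches were shared with the predicted gene Gm20743, and for Cxcl3 4.29% were shared with other genes, Cxcl2 among them, so that reads there could have been split.

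The mRNA table held 629041564 counts, between 4138 and 892142 per barcode with a median of 25960.5. Levels are given as counts-per-million values (CPM) of the summed counts of a cell group, with exact Poisson 95% intervals for the main ones, and a cell is called positive at 5 or more counts of a gene. These intervals cover counting error only, since counts behaved like reads and reads of 1 molecule are not independent. Cells were clustered without the chemokine genes into 20 clusters. By their markers the clusters gave 7891 T cell-like, 128 gamma delta T cell-like, 1570 macrophage or monocyte-like, 270 dendritic cell-like, 138 neutrophil-like, 26 fibroblast-like and 1012 melanoma-like cells, and 283 shallow cells stayed unnamed. Median counts per cell were 20813 in the T cell class, 71892.5 in the macrophage class, 51839.5 in the dendritic class, 9255.5 in the neutrophil class and 193825.5 in the melanoma class. All 10 T cell markers were found in over 20% of the T cell class, all 14 macrophage markers in the macrophage class, and 7 of 8 neutrophil markers in the neutrophil class. The same held for 8 of 14 dendritic, 7 of 8 melanoma, 6 of 6 fibroblast and 3 of 5 gamma delta T cell markers in their classes. The 26 fibroblast-like cells also held 4 of 5 endothelial and 5 of 8 melanoma markers in over 20%, and their part in the levels of that class was not tested. Many barcodes carried the RNA of more than 1 cell type, since 67.8% of macrophage-class barcodes held at least 5 counts of a T cell receptor or CD3 gene and 32.8% of T cell-class barcodes held such counts of a macrophage or melanoma gene. Of the mRNA barcodes 11808 were also in the hashtag table. A hashtag could be called for 6158 cells, with a median of only 12 hashtag counts per cell, in 45.3% of the T cell class and 80.1% of the macrophage class. The hashtags come from 1 capture and the labels used here do not map them to samples, so ratios were taken within each hashtag and given without a p-value, and no test between cell groups was made.

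T cell-class barcodes held most counts of Ccl1 (87.8%), Xcl1 (82.2%), Ccl5 (72.8%) and Ccl3 (53.8%). The macrophage class held most counts of Ccl8 (97.1%), Cxcl13 (92.8%), Ccl2 (89.9%), Cxcl3 (56%) and Ccl4 (55.1%), and the dendritic class held 77% of those of Ccl22. Shares follow the number of cells captured and their RNA content, and the order by level was different for 5 genes. By class, the level of Ccl3, Ccl4 and Cxcl3 was highest in the small neutrophil class, and that of Ccl2 and Cxcl13 in the 26 fibroblast-like cells.

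**Figure D1:**
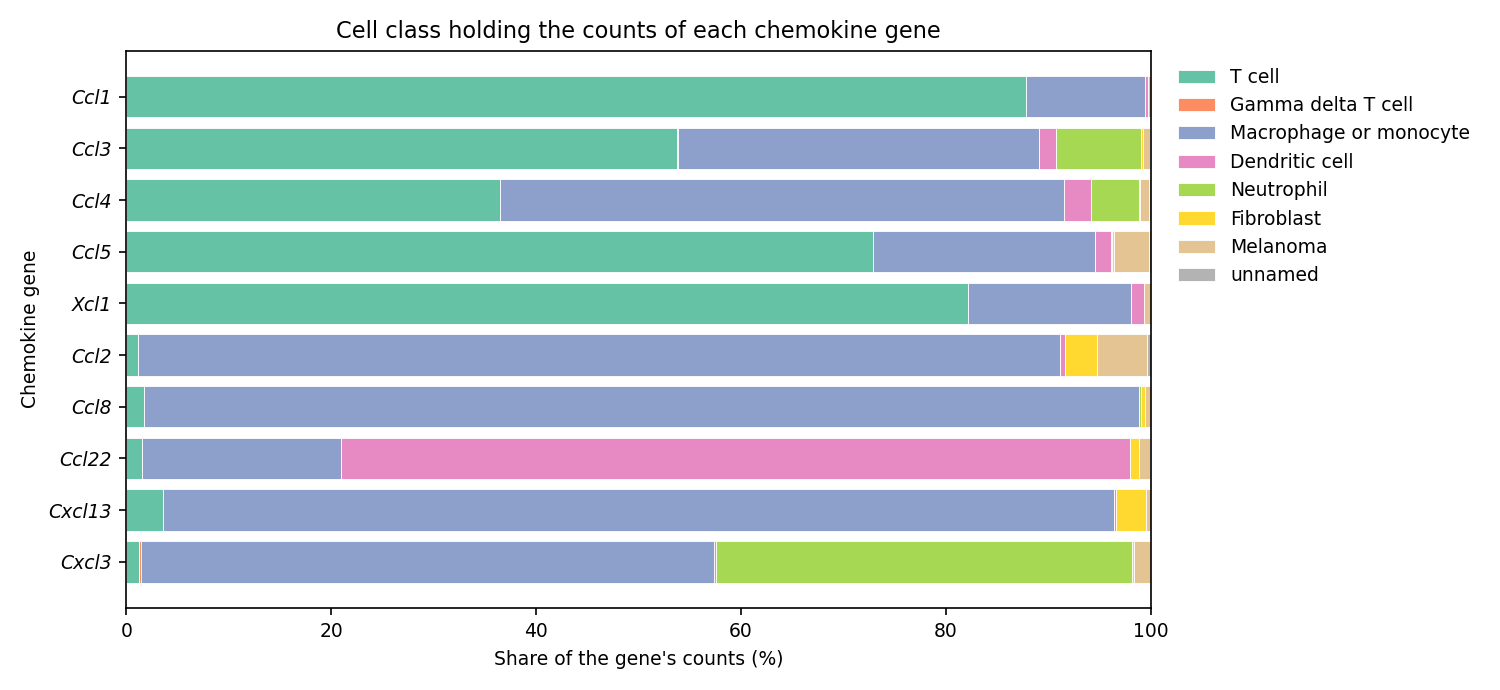
Share of the counts of each chemokine gene held by each cell class, in percent of all counts of the gene over the 11318 cells; bars run to 100%. T cells fill most of the bars of Ccl1, Ccl5 and Xcl1, macrophages those of Ccl2, Ccl8 and Cxcl13, dendritic cells that of Ccl22, and neutrophils, 138 cells, hold 40.6% of Cxcl3.

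**Figure D2:**
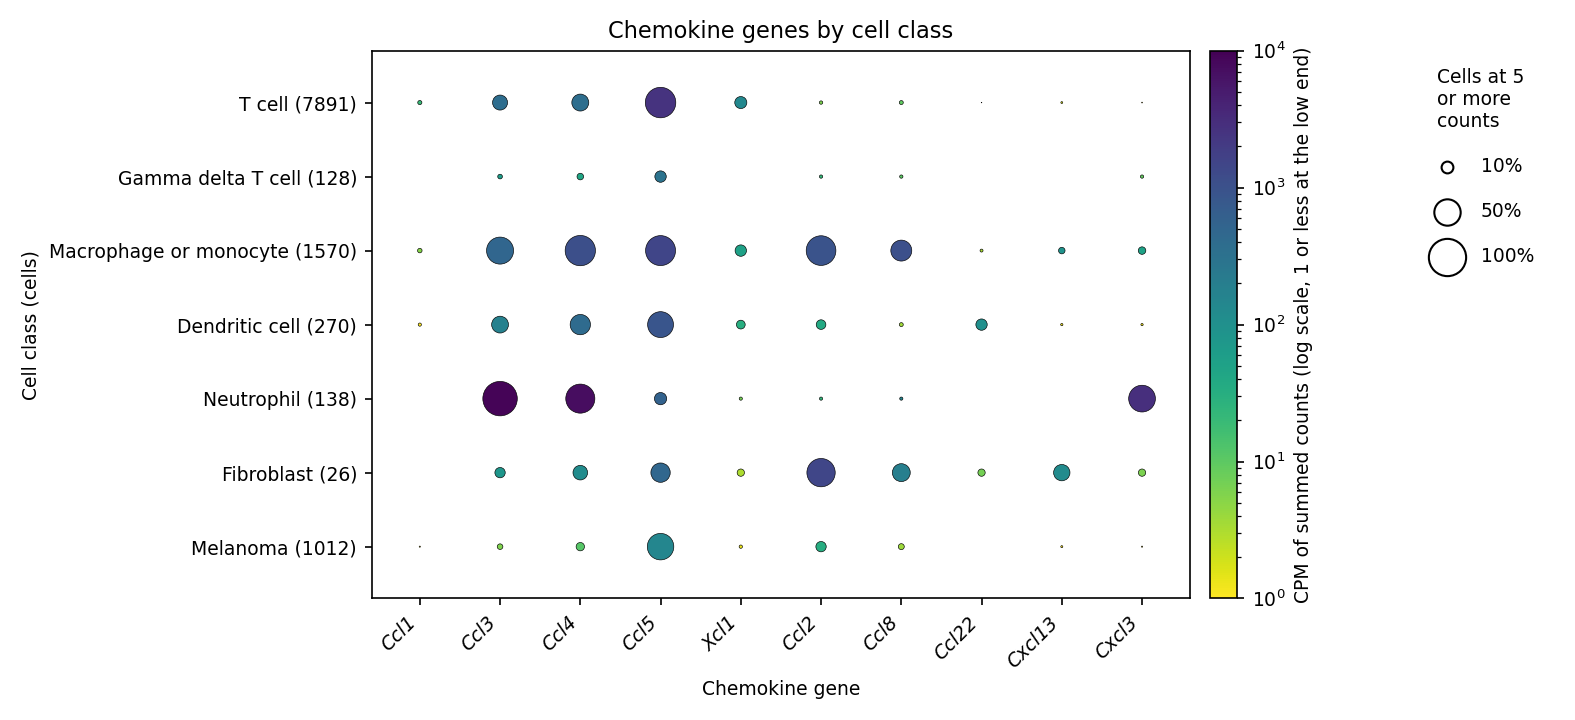
Level of each chemokine gene in 7 cell classes: colour is the CPM of the summed counts on a log scale, dot area the percent of cells with 5 or more counts, and cell numbers stand in brackets. The darkest dots are Ccl3 (9167 CPM) and Ccl4 (7269 CPM) in neutrophils, and Ccl22 has its strongest dot in dendritic cells.

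Ccl3 and Ccl4, the macrophage inflammatory proteins, were present in T cells, macrophages, dendritic cells and neutrophils. Ccl3 reached 9167 CPM (95% interval 9020.5 to 9316) in the neutrophil class, where 85.5% of cells were positive. In the other immune classes it stood at 490.3 CPM (52.5% positive) in macrophages, 383.9 CPM (16.2%) in T cells and 179.2 CPM (20.4%) in dendritic cells. Ccl4 reached 7269 CPM (7138 to 7402) in neutrophils with 60.9% positive, and stood at 1096 CPM (66.1%) in macrophages, 414.3 CPM (29.6%) in dendritic cells and 372.2 CPM (20.7%) in T cells. Melanoma-class barcodes, the deepest of all, held 5.92 CPM of Ccl3 (2.27% positive) and 11.2 CPM of Ccl4 (5.04%). The 283 shallow unnamed barcodes, in which 6 of 8 melanoma markers were found in over 20%, held 51.6 CPM of Ccl3 (2.12% positive) and 96 CPM of Ccl4 (2.47%), so the deep and the shallow barcodes with melanoma markers differed in level. When every cell was thinned to 10000 counts, which left out 81 of the 138 neutrophils and 1010 T cells, Ccl3 was found in 89.5% of neutrophils, 27.8% of macrophages, 11.4% of T cells, 8.81% of dendritic cells and 0.0988% of melanoma cells. The neutrophil signal was present in barcodes with no T cell counts as well, with 4358 CPM of Ccl3 in 19 neutrophils with such counts and 10991 CPM in 119 without.

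The balance of the 2 genes differed between cell groups. A count ratio has no meaning as a ratio of molecules, since the genes differ in length and capture, but the same ratio can be set between groups. Ccl3 counts over Ccl4 counts came to 1.26 in neutrophils, 1.03 in the T cell class and 0.447 in macrophages (0.402 in the 505 macrophage barcodes without T cell counts). Within CD8 cells the ratio was 1.22 in Havcr2-positive cells, 1.21 in cycling cells, 0.527 in Gzmk-positive cells and 0.0907 in Tcf7-positive cells without Pdcd1. Over the 20 clusters the gene most like Ccl3 was Ccl4 (Pearson r = 0.95 of log2(CPM + 10)), followed by the ectonucleotidase gene Entpd1 (0.94) and Plek (0.91), among 7194 genes. These clusters share 1 capture and differ in depth, and all 3 of these genes had their highest level in the neutrophil cluster, so the correlation is a description only.

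The promoter of Ccl3 (chr11:83649329-83649628, minus strand) is shown because Ccl3 had the largest log2 ratio of the chemokine genes examined between Havcr2-positive and Tcf7-positive CD8 cells, as described further on. It is the RefSeq sequence of GRCm38.p6, 250 bases before to 50 after the gene start, with matches to the NFAT core GGAAA on either strand in capitals.
Ccl3: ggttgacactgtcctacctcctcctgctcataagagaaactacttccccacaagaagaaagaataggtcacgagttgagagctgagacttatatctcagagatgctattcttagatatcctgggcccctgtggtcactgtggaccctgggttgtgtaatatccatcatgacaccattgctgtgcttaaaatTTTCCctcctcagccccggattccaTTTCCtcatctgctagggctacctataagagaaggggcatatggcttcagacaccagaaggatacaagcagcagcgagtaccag
Both matches lie on the strand opposite to the printed one, at positions -59 and -34 from the start, and so read as TTTCC here. The letters TGANTCA (AP-1), GGGA plus any base plus TTTCC (kappa B), GAAA plus any 2 bases plus GAAA (interferon-response-like) and TATAAA were not found in this window on either strand. Of 32817 promoters of this length, 61.3% hold the NFAT core, 7.8% the AP-1 letters, 0.4% the kappa B letters, 3.4% the interferon-response-like letters and 13.6% TATAAA, so most promoters hold an NFAT core match. Promoters were found in that set for 7 of the 10 genes, and not for Ccl2, Ccl4 and Ccl5.

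In T cells against macrophages, 7 of the 9 chemokine genes with enough counts differed in the same direction in all 6 hashtags with a median of at least 1 on the log2 scale, where 19.4% of the 10032 genes examined did so (8.05% higher, 11.4% lower in T cells). Higher in T cells were 3 genes, Ccl1, Ccl5 and Xcl1, and lower were 4, Ccl4, Ccl2, Ccl8 and Cxcl3, against a median over all genes of 0.22. Ccl3 ranged over 283.2, 377.9 and 1307 CPM (lowest, median and highest hashtag) in T cells and over 276.8, 425.0 and 1189 CPM in macrophages. These ranges overlapped, and the log2 ratio of Ccl3 had a median of -0.46 with both signs among the hashtags (-1.41 to 2.1). Ccl4 ranged over 261.2, 444.9 and 746.0 CPM in T cells and over 518.9, 758.9 and 3201 CPM in macrophages, with overlap, and was lower in T cells in 6 of 6 hashtags, with a median log2 ratio of -1.16 and a range of -2.52 to -0.08. The hashtag nearest to 0 was A0303, in which T cells held 746.0 and macrophages 787.2 CPM. The Ccl4 call was lost when totals left out mitochondrial and ribosomal protein genes (-1.08) or hashtag calls were stricter (-1.12), since the call also asks for the same sign in every hashtag.

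**Figure D3:**
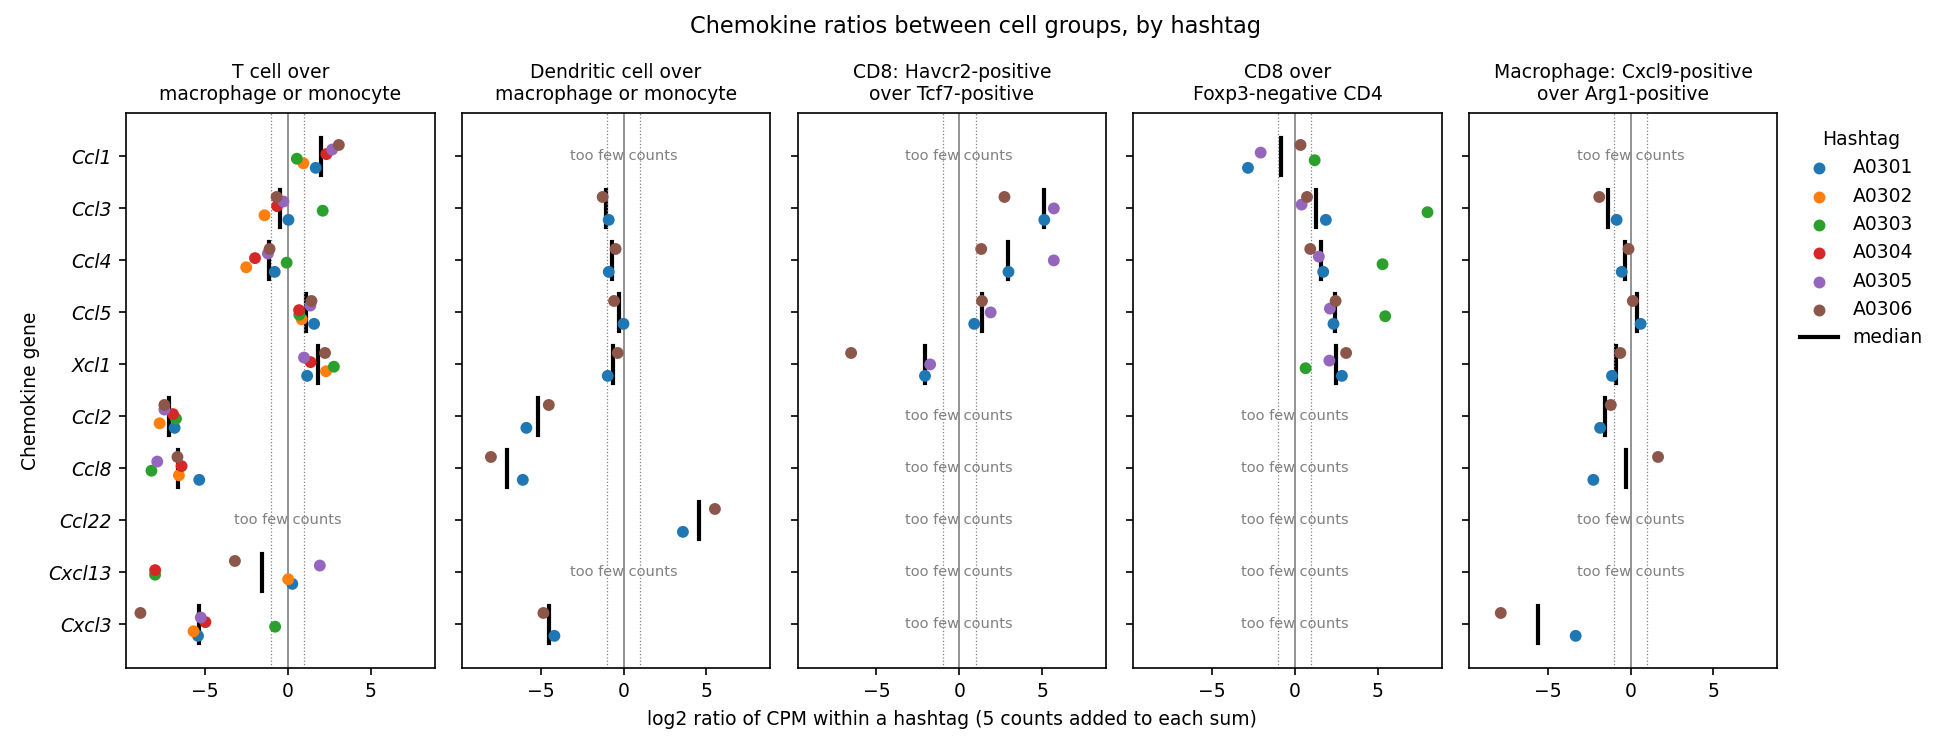
log2 ratio of CPM between cell groups within each hashtag, with 5 counts added to each sum; points are hashtags of unknown genotype, black bars their median, dotted lines mark a log2 ratio of 1 in size, and genes with too few counts are marked. T cell points lie above 0 in all 6 hashtags for Ccl1, Ccl5 and Xcl1 and below 0 for Ccl2, Ccl8 and Cxcl3, and the Ccl3 points lie on both sides.

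Ccl5, a chemokine of effector T cells, was found in 66.9% of T cell-class barcodes at 2625 CPM (2618 to 2631). In macrophages it was found in 64.6% at 1518 CPM and in dendritic cells in 48.1% at 872.0 CPM. By hashtag it ranged over 2198, 2479.5 and 3765 CPM in T cells and over 747.9, 1147 and 2338 CPM in macrophages. The ranges overlapped, but within a hashtag T cells were higher in 6 of 6, with a median log2 ratio of 1.09 (0.67 to 1.58). Macrophage-class barcodes with T cell counts held 1872 CPM of Ccl5 and those without held 174.8 CPM, with 84.2% and 23.4% positive. The former were deeper, with a median of 85958 counts against 42239, and positive shares at a fixed limit depend on depth. Without barcodes of mixed content the log2 ratio of T cells over macrophages for Ccl5 was 4.85 over 4 hashtags. With median-of-ratios scaling it was 0.90, with all cells pooled 0.79 and without hashtag A0301, A0305 or A0306 0.83, all below the limit of 1.

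Ccl5 was also found in melanoma-class barcodes, at 148.5 CPM with 50.5% positive. In the 199 melanoma barcodes with T cell counts it stood at 224.5 CPM, against 124.9 CPM (45% positive) in the 813 without. At 10000 counts per cell only 7.91% of melanoma barcodes were positive, against 61.7% of T cells. The melanoma cluster led by the interferon-induced genes Iigp1, Irgm1 and Ifit3 (155 cells) held 490.6 CPM of Ccl5 with 84.5% positive, and the other melanoma cluster (857 cells) held 80.7 CPM with 44.3% positive. In melanoma cells of 5 hashtags Ccl5 stood at 102.4 CPM (A0301), 123.0 (A0302), 425.7 (A0304), 92.3 (A0305) and 75.4 (A0306), so A0304 lay apart.

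Within the T cell class the states were read from marker genes at 5 or more counts. The CD8 states held Ccl5 at 6805 CPM in 588 Havcr2-positive cells (Havcr2 encodes the exhaustion marker TIM-3), 6361 CPM in 171 Gzmk-positive cells, 3869.7 CPM in 153 Ly49-positive cells without Pdcd1, 2005 CPM in 1478 cycling cells, 2014 CPM in 394 Tcf7-positive cells without Pdcd1 and 1619 CPM in 83 Tcf7-positive cells with Pdcd1. Positive shares ran from 94.9% and 95.3% in Havcr2-positive and Gzmk-positive cells down to 44.6% in Tcf7-positive cells with Pdcd1. Among CD4 cells, Ccl5 was at 899.4 CPM in Foxp3-positive cells that did not cycle (170 cells), 217.7 CPM in cycling Foxp3-positive cells (132), 1140.0 CPM in other Foxp3-negative cells (465) and 67.6 CPM in those with Tnfsf11 or Penk (248).

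**Figure D4:**
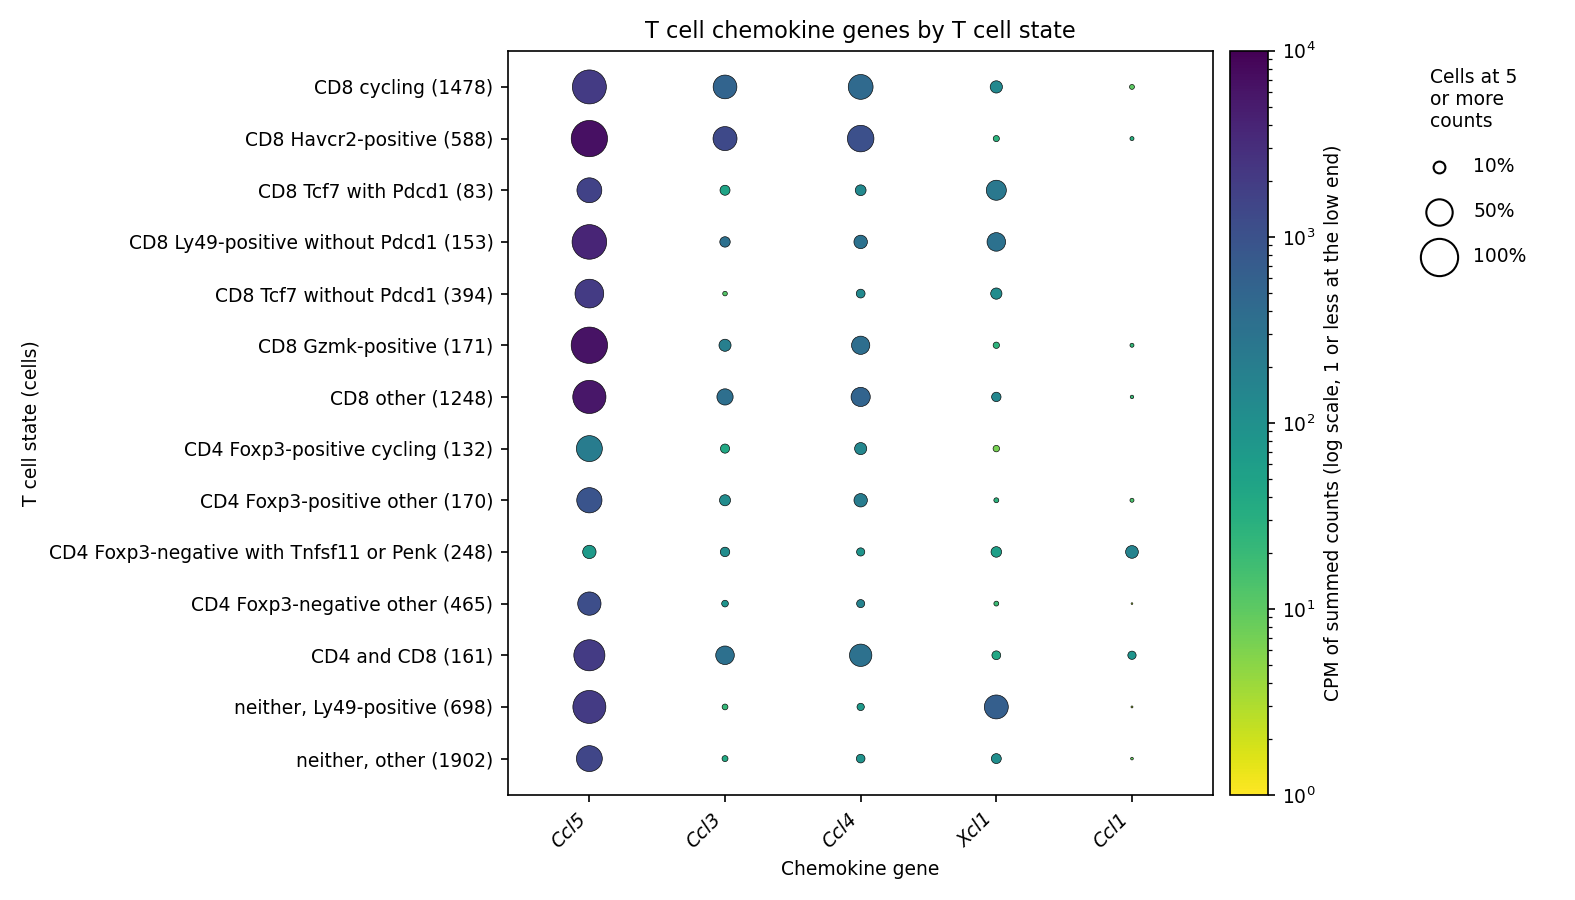
Level of the 5 T cell chemokine genes in 14 T cell states: colour is the CPM of the summed counts on a log scale, dot area the percent of cells with 5 or more counts, and cell numbers stand in brackets. Ccl3 and Ccl4 have their darkest dots in Havcr2-positive CD8 cells, Xcl1 in Ly49-positive cells with neither CD4 nor CD8 counts, and Ccl1 in Foxp3-negative CD4 cells with Tnfsf11 or Penk.

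Ccl3 and Ccl4 in T cells lay mainly in CD8 cells. Ccl3 stood at 1293 CPM (41.5% positive) in Havcr2-positive and 523.4 CPM (40.5%) in cycling CD8 cells, and at 11.9 CPM (1.52%) in Tcf7-positive CD8 cells without Pdcd1. Ccl4 stood at 1055 CPM (50.7%), 434.1 CPM (44.4%) and 131.7 CPM (5.58%) in these 3 states. Cycling CD8 cells alone held 27.9% of all Ccl3 counts. At 10000 counts per cell, Ccl3 was positive in 31% of Havcr2-positive, 22.7% of cycling and 0.824% of Tcf7-positive cells without Pdcd1. The cluster with the highest Ccl3 level among T cells was led by the granzyme genes Gzmf, Gzme and Gzmd (152 cells), at 1642 CPM with 50.7% positive.

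Havcr2-positive CD8 cells without Tcf7 were then set against Tcf7-positive CD8 cells without Havcr2. These markers are commonly read as the terminal and the stem-like ends of exhaustion among exhausted CD8 cells. Of the 704 Tcf7-positive cells, however, 152 had Pdcd1 and 552 did not, so most of that group was not marked as exhausted. Cycling cells were kept in both groups (1188 and 704 cells), unlike in the Havcr2-positive and Tcf7-positive states above. All 4 of the chemokine genes with enough counts differed in the same direction in the 3 usable hashtags with a median of at least 1, where 10.8% of 5893 genes did so (5.85% higher, 4.92% lower). Ccl3 stood at 637.4, 589.9 and 710.1 CPM in Havcr2-positive cells of A0301, A0305 and A0306, against 16.9, 8.13 and 104.7 CPM in Tcf7-positive cells. The groups did not overlap, and the median log2 ratio of 5.14 lay between 3.93 and 5.43 when a hashtag was left out. Ccl4 stood at 601.2, 621.7 and 558.4 CPM in Havcr2-positive cells, against 75.3, 8.76 and 220.4 CPM in Tcf7-positive cells, with a median log2 ratio of 2.97 (2.15 to 4.34 when a hashtag was left out, and 1.31 when thinned to 10000 counts per cell). Ccl5 stood at 2999, 3313 and 4018 CPM in Havcr2-positive cells against 1601, 886.4 and 1551 CPM in Tcf7-positive cells, with a median log2 ratio of 1.37. Neither Ccl4 nor Ccl5 overlapped between the groups. How many of all genes do not overlap over 3 hashtags was not counted, so overlap here describes the values only. Xcl1 went the other way, with 26.5, 64.5 and 3.1 CPM in Havcr2-positive cells against 111.8, 218.9 and 369.0 CPM in Tcf7-positive cells and a median log2 ratio of -2.07, again without overlap. Ccl1 had 351 counts in Havcr2-positive cells and 6 in Tcf7-positive cells, which makes it at least 4.58-fold higher when the lower sum is set to the floor of 30 counts over the group. Without barcodes of mixed content the log2 ratios were 5.34 for Ccl3, 3.70 for Ccl4, 1.52 for Ccl5 and -3.20 for Xcl1. The Xcl1 call was lost, with the same direction, when cells were called positive at 1 count or 10 cells per hashtag were enough, and over the settings tried the Xcl1 ratio lay between -4.30 and -1.59.

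Among Tcf7-positive CD8 cells, those with Pdcd1, as in precursors of exhausted cells, were set against those without, here with all cells of each group pooled since too few hashtags had 30 cells in both groups. Cells with Havcr2 were left out, and cycling cells were again kept in. Of 6 chemokine genes examined, 3 passed a log2 ratio of 1, where 9.06% of 8431 genes did so (5.03% higher, 4.03% lower). Ccl3 was higher at 69.2 CPM in 152 cells with Pdcd1 against 18.8 CPM in 552 cells without (log2 ratio 1.87), and Ccl5 was lower at 775.4 against 1742 CPM (-1.17). Ccl8, at 9.40 CPM in the T cell class as a whole, had 34 and 223 counts (-1.66). Xcl1 stood at 309.1 CPM with Pdcd1 against 181.1 CPM without (0.77), and Ccl4 at 124.0 against 105.0 CPM (0.24), both below the limit. The Ccl3 ratio fell below the limit when cells were called positive at 1 count (0.88) or 10 counts (0.75) and without the highest doublet scores (0.93). Thinned to 10000 counts per cell, the ratio was -0.29 for Ccl5, below the limit, and 2.02 for Ccl4, above it.

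Xcl1, the C chemokine that attracts Xcr1-bearing dendritic cells, stood at 134.5 CPM (133.0 to 135.9) in the T cell class with 827 of 7891 cells positive. No Xcl1 count was found in the 128 gamma delta T cell-like cells, which allows a level of up to 13.9 CPM at a floor of 30 counts. Macrophages held 50.7 CPM (9.36% positive), dendritic cells 30.6 CPM (5.56%) and melanoma cells 1.30 CPM (0.791%). By hashtag Xcl1 ranged over 58.1, 161.9 and 257.0 CPM in T cells and over 20.4, 48.4 and 81.9 CPM in macrophages, with overlap. Within a hashtag T cells were higher in 6 of 6, with a median log2 ratio of 1.80 (0.97 to 2.78). The 1065 macrophage barcodes with T cell counts held 63.9 CPM of Xcl1, against 17 counts, 0.639 CPM and no positive cell in the 505 without.

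The T cell state with the highest Xcl1 level was not a CD8 or CD4 state as read from counts. Cells with neither CD4 nor CD8 counts but with counts of a Ly49 receptor gene (Klra1 and Klra3 to Klra10, receptors of NK cells and of some T cells for MHC class I) held 648.9 CPM with 41.3% positive, 288 of 698 cells, and 21.1% of all Xcl1 counts. In the 3 hashtags with 30 such cells Xcl1 stood at 482.8, 453.6 and 928.5 CPM, all above the highest hashtag value of the whole T cell class. Next came Ly49-positive CD8 cells without Pdcd1 at 327.0 CPM (24.8%) and Tcf7-positive CD8 cells with Pdcd1 at 246.1 CPM (28.9%). Havcr2-positive CD8 cells held 27.2 CPM (2.72%), Gzmk-positive ones 25.8 CPM (2.92%) and non-cycling Foxp3-positive CD4 cells 26.9 CPM (1.76%). At 10000 counts per cell the positive shares were 30.3% in the Ly49-positive cells with neither coreceptor, 19% in Ly49-positive CD8 cells and 17.1% in Tcf7-positive CD8 cells with Pdcd1. Cycling CD8 cells held 31.4% of all Xcl1 counts at 135.2 CPM, and 69.5 CPM once barcodes with macrophage or melanoma counts were left out. A single T cell-class barcode held 3166 of the 40744 Xcl1 counts, 7.77%.

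The identity of the Ly49-positive cells was checked against T, NK and gamma delta T cell markers. Of the 10 T cell markers, the alpha beta T cell receptor gene Trbc2 was positive in 80.1% of them, Cd3d in 64%, Trac in 62.3%, Cd3g in 56.9%, Cd2 in 46%, Lck in 45.7%, Cd3e in 37.4%, Trbc1 in 32.8%, Lat in 19.2% and Bcl11b in 12.5%. In the 1902 other cells with neither coreceptor Trbc2 was positive in 68.5%, Cd3d in 55.2%, Trac in 65.4% and Cd3g in 50.7%. There Cd2 was positive in 49.4%, Lck in 36.2%, Cd3e in 32.8%, Trbc1 in 28.9%, Lat in 32.4% and Bcl11b in 27.2%. Of the NK markers, Fcer1g was positive in 45.8% of the Ly49-positive cells, Klrk1 in 33.8%, Tyrobp in 19.3% and Klrb1c in 17.5%. Eomes was positive in 7.16% of them, Gzma in 3.72%, Ncr1 in 2.58% and Klra8 in 0.716%. In the 1902 other cells Fcer1g was positive in 7.68%, Klrk1 in 9.88%, Tyrobp in 2.26% and Klrb1c in 2.37%. There Eomes was positive in 4.00%, Gzma in 3.89% and Ncr1 in 0.105%. Klra8 is a Ly49 gene, so its absence there follows from the definition. All these NK markers but Gzma were thus more frequent in the Ly49-positive cells, which were also deeper (median 16690 against 13205.5 counts). The gamma delta gene Trdc was positive in 11.5% of the Ly49-positive cells and in 7.15% of the other cells. Xcl1 stood at 647.4 CPM in the 638 cells with Trac, Trbc1 or Trbc2 and at 670.2 CPM in the 60 without, at 908.8 CPM in 130 cells with Klrb1c or Ncr1 and at 576.7 CPM in 568 without, and at 943.4 CPM in 80 cells with Trdc and at 604.8 CPM in 618 without. Xcl1 was present on both sides of each split, and higher in the cells with Klrb1c or Ncr1 and with Trdc.

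Over the clusters, Xcl1 was highest at 547.2 CPM (36.9% positive) in 217 cells led by Ccr7, Nrn1, Dapl1, Tcf7 and Slamf6, and second at 440.5 CPM (28.2%) in 1609 cells led by Klra7 and Klra1. The genes most like it over the 20 clusters were Cd160 (r = 0.84), Crtam (0.83) and Samd3 (0.78). The Xcl1 promoter (RefSeq GRCm38.p6, chr1:164935473-164935772, minus strand) is shown beside that of Ccl3 because the 2 genes moved in opposite directions between the CD8 states.
Xcl1: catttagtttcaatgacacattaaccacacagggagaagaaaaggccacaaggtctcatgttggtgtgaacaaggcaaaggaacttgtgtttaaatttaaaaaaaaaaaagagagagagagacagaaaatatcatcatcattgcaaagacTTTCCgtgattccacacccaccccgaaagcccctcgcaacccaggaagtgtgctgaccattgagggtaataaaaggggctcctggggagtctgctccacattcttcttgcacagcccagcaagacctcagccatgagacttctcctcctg
It holds a single GGAAA match, on the strand opposite to the printed one at position -100 (in capitals, read as TTTCC), and none of the other 4 letter strings.

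Ccl1, a chemokine of activated T cells whose receptor Ccr8 is carried by regulatory T cells, was rare. It stood at 20.5 CPM (19.9 to 21.1) in the T cell class, with 98 of 7891 cells positive (1.24%), and at 5.29 CPM in macrophages. By hashtag it ranged over 7.36, 22.2 and 27.5 CPM in T cells and over 1.15, 4.79 and 10.4 CPM in macrophages, with a median log2 ratio of 2.00 (0.54 to 3.07, higher in T cells in 6 of 6 hashtags). In the 505 macrophage barcodes without T cell counts Ccl1 had no counts. Only 15 cells held 50% of all Ccl1 counts.

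Foxp3-negative CD4 cells with Tnfsf11, the gene of RANKL, or Penk, the gene of proenkephalin, held the highest Ccl1 level of the 14 states, 161.7 CPM (154.0 to 169.6). Of these 248 cells 29 were positive (11.7%), and they held 28.7% of all Ccl1 counts. Set against 465 other Foxp3-negative CD4 cells, with all cells pooled, 3 of 5 chemokine genes examined passed a log2 ratio of 1, where 12.6% of 8280 genes did so (5.6% higher, 6.99% lower). Ccl1 stood at 161.7 against 3.37 CPM (log2 ratio 5.38), Xcl1 at 57.3 against 18.8 CPM (1.58) and Ccl5 at 67.6 against 1140.0 CPM (-4.07). Ccl3 at 114.0 against 83.9 CPM (0.44) and Ccl4 at 86.4 against 168.3 CPM (-0.96) did not pass the limit. Over the settings tried the ratio lay between -1.005 and 1.71 for Ccl3 and between -2.20 and 0.52 for Ccl4, so neither kept its direction. With a hashtag left out that of Ccl3 lay between -0.65 and 1.58. Of the 98 Ccl1-positive T cells 56.1% also had Tnfsf11, against 7.57% of the 7793 without Ccl1, and 20.4% had Penk, against 2.12%. Cd8a was found in 51% of the Ccl1-positive cells and Cd4 in 40.8%, Xcl1 in 41.8% and Ccl3 in 37.8%. These cells were deeper, with a median of 36905 counts against 20694. At 10000 counts per cell Ccl1 remained positive in 7.79% of the CD4 cells with Tnfsf11 or Penk and 0.266% of the others. Cells with counts of both CD4 and CD8 genes held 85.4 CPM of Ccl1 (161 cells), but 7.62 CPM once barcodes with macrophage or melanoma counts were left out (81 cells). Tnfsf11, Penk and Ccl1 together led a T cell cluster of 330 cells, which held 48.7% of all Ccl1 counts at 208.6 CPM. A high Ccl1 level in CD4 cells picked by Tnfsf11 or Penk was thus to be expected from these same data and is a description only.

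CD8 cells against Foxp3-negative CD4 cells gave 4 of 5 chemokine genes called, all higher in CD8 cells, where 4.1% of 7508 genes were called (1.65% higher). In hashtags A0301, A0303, A0305 and A0306, Ccl5 stood at 2966.5, 5128, 3201 and 3282 CPM in CD8 cells against 588.1, 111.2, 736.1 and 594.4 CPM in CD4 cells, without overlap (median log2 ratio 2.39). Xcl1 stood at 218.7, 107.0, 189.35 and 217.7 CPM in CD8 cells against 29.2, 63.4, 42.4 and 22.7 CPM in CD4 cells (2.46). The Xcl1 and Ccl5 groups did not overlap. Ccl4 stood at 414.3, 1134, 378.3 and 459.8 CPM in CD8 cells against 125.2, 23.4, 136.5 and 239.0 CPM in CD4 cells (1.58). Ccl3 stood at 414.3, 2006, 414.4 and 430.4 CPM in CD8 cells against 112.1, 2.22, 310.9 and 256.6 CPM in CD4 cells (1.30). Neither gene overlapped between the groups, and A0303 had both the highest CD8 and the lowest CD4 value. The share of all genes without overlap was not counted here either. The Ccl3 ratio was 0.73 without A0301 or without A0303, and -0.13 without barcodes of mixed content, where that of Ccl4 was 0.99. The Xcl1 call was lost, with the same direction, with 10 cells per hashtag (2.08) or with 50 counts added (1.83). Ccl1 had both signs, with a median of -0.86.

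Foxp3-positive CD4 cells against Foxp3-negative ones gave 2 of 4 genes called lower, Ccl1 and Ccl3, where 6.9% of 3781 genes were called in either direction (3.83% lower). Ccl1 stood at 0, 30.2 and 0 CPM in Foxp3-positive cells of A0301, A0305 and A0306 against 137.2, 67.5 and 18.7 CPM in Foxp3-negative cells (median log2 ratio -2.57), so that the ranges overlapped. Over the settings tried the Ccl1 ratio lay between -5.23 and -0.50, and with a hashtag left out between -4.35 and -3.60. The last range does not reach the main ratio of -2.57, so it cannot cover every hashtag left out. A weaker ratio in a leave-out without a value is therefore possible. Ccl3 stood at 100.96, 73.6 and 10.9 CPM in Foxp3-positive cells against 112.1, 310.9 and 256.6 CPM in Foxp3-negative cells (-2.02). The groups did not overlap, but in A0301 the values lay close together, and over the settings tried the Ccl3 ratio lay between -4.44 and 0.094. Overlap over all genes was not counted. Ccl4 (0.04) and Ccl5 (-0.46) were not called.

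Ccl2, the chief attractant of Ccr2-bearing monocytes, lay in macrophages and fibroblasts. It stood at 955.9 CPM (950.5 to 961.2) in macrophages with 63.4% positive and at 1476 CPM (1432 to 1521) in the 26 fibroblast-like cells, 15 of which were positive. Of the 20 clusters, however, the highest Ccl2 level was in a macrophage-class cluster, the 52 cells led by Lyve1, Cbr2 and Folr2. T cells held 6.23 CPM with 0.824% positive, and melanoma cells 32.1 CPM with 7.71% positive (1.58% at 10000 counts per cell). By hashtag Ccl2 ranged over 5.16, 6.37 and 11.6 CPM in T cells and over 624.2, 1028 and 2680.0 CPM in macrophages, with a median log2 ratio of -7.20. The highest macrophage value, in A0302, lay apart from the next at 1254 CPM.

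Ccl8, which attracts Ccr8-bearing cells in the mouse, was found in 31.6% of macrophages at 1068 CPM (1062 to 1073). T cells held 9.40 CPM with 1.14% positive. Its counts were concentrated, with 52 cells holding 50% of them. The 52 cells of the cluster led by Lyve1, Cbr2 and Folr2, genes of tissue-resident macrophages, held Ccl8 at 6371 CPM with 90.4% positive, and 21.5% of all Ccl8 counts. Macrophages with Folr2 (191 cells) held 3699.8 CPM and those without 542.4 CPM, and macrophages with Lyve1 (46 cells) held 5689 CPM and those without 893.4 CPM. Of the 496 Ccl8-positive macrophages 30.4% had Folr2, against 3.72% of the 1074 without Ccl8, and 84.7% had Ccl2, against 53.5%. The positive cells were also deeper, with a median of 100729 counts against 58947.5. By hashtag Ccl8 ranged over 326.2, 919.3 and 1819 CPM in macrophages. Over the 20 clusters the genes most like Ccl8 were the complement genes C1qa (r = 0.98), C1qb (0.97) and C1qc (0.97), which also mark macrophages, and those most like Ccl2 were Sash1 (0.94), Rgl1 (0.93) and Ccl7 (0.93).

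A small cluster led by Ace, Ear2 and Treml4, genes of patrolling monocytes, had a different set of chemokines. Its 50 cells held Ccl3 at 1025 CPM, Ccl4 at 1461 CPM and Ccl5 at 3582 CPM, and Ccl2 at 62.5 CPM and Ccl8 at 16.5 CPM. The main macrophage cluster (1468 cells) held 479.7, 1114, 1535, 917.3 and 874.8 CPM of these genes in the same order. All 10 T cell markers were found in over 20% of the 50 cells.

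Macrophages with Cxcl9 and no Arg1, genes of interferon-activated and of arginase-expressing macrophages, were set against those with Arg1 and no Cxcl9. Of 7 chemokine genes examined 3 were called, all lower in the Cxcl9-positive cells, where 8.31% of 6452 genes were called in either direction (4.57% higher, 3.74% lower). In A0301 and A0306 Ccl2 stood at 338.9 and 759.9 CPM in Cxcl9-positive cells against 1212 and 1737 CPM in Arg1-positive cells (median log2 ratio -1.52), and Ccl3 at 178.7 and 326.9 CPM in Cxcl9-positive cells against 319.4 and 1214 CPM in Arg1-positive cells (-1.37). Cxcl3 stood at 7.70 and 2.53 CPM in Cxcl9-positive cells against 79.2 and 839.0 CPM in Arg1-positive cells (-5.58). The groups did not overlap for Ccl2 and Cxcl3 and did for Ccl3, and A0306 was the higher hashtag in both groups for Ccl2 and Ccl3. Of the 6452 genes examined 58.1% had the same sign in both hashtags, and the share without overlap was not counted. Ccl8 went opposite ways in the 2 hashtags, at 174.05 and 651.0 CPM in Cxcl9-positive cells against 826.0 and 204.2 CPM in Arg1-positive cells. Without A0306 the Ccl3 ratio, then from all remaining cells pooled, was -0.86.

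Ccl22, a chemokine of mature dendritic cells, was the only one of the 10 led by the dendritic class. It stood at 103.7 CPM (98.8 to 108.7) there with 25 of 270 cells positive (9.26%), at 3.34 CPM in macrophages and at 0.133 CPM in T cells. Just 6 cells held 50% of its counts, and 1 dendritic cell held 22.6%. Dendritic cells against macrophages gave 5 of 8 chemokine genes called, where 13.1% of 8956 genes were called (4.68% higher, 8.42% lower). Ccl22 stood at 47.1 and 271.9 CPM in dendritic cells of A0301 and A0306 against 3.80 and 5.56 CPM in macrophages, with log2 ratios of 3.58 and 5.52. These values did not overlap, and the share of all genes without overlap was not counted. The other 4 called genes were lower in dendritic cells, with median log2 ratios of -7.05 for Ccl8, -5.19 for Ccl2 and -1.08 for Ccl3, and with Cxcl3 at least 23.4-fold lower. With stricter hashtag calls the Ccl3 ratio was -0.97, below the limit. The 79 dendritic cells with Ccr7, the receptor of migrating dendritic cells, held 224.3 CPM of Ccl22 against 32.7 CPM in the 191 without. The 15 cells with Fscn1, the fascin gene of mature dendritic cells, held 1187 CPM against 46.1 CPM in the 255 without, and the 155 cells with Cd209a held 23 CPM against 223.4 CPM in the 115 without. Of the 25 Ccl22-positive cells 76% had Ccr7, against 24.5% of the other 245, 36% had Fscn1, against 2.45%, and 28% had Ccl17, the other ligand of Ccr4, against 5.31%. The Ccl22 level was 105.2 CPM in the 205 dendritic barcodes with T cell counts and 94.6 CPM in the 65 without. Ccl5 by contrast stood at 961.4 CPM in dendritic barcodes with T cell counts and at 363.0 CPM in those without. The 15 cells with Fscn1 held 3543 CPM of Ccl5 with 93.3% positive, against 730.1 CPM with 45.5% positive in the 255 without.

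Cxcl13, the B cell attractant that acts through Cxcr5, came from few cells. Macrophages held 87.1 CPM (85.5 to 88.7) with 48 of 1570 positive (3.06%), and the fibroblast-like cells 120.3 CPM with 5 of 26 positive. T cells held 1.72 CPM with 0.253% positive. Of all Cxcl13 counts 83.7% lay in the 688 macrophages with Cxcl9 and no Arg1, at 152.1 CPM. In macrophages of the 6 hashtags it ranged over 0.0672, 14.3 and 283.8 CPM. A0304 and A0303 were high, and A0302 and A0305 were near 0. The T cell to macrophage ratio therefore had both signs (median -1.59, -8.02 to 1.93). Only 6 cells held 50% of the Cxcl13 counts, and 1 macrophage held 12.6%.

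Cxcl3, a ligand of the neutrophil receptor Cxcr2, stood at 2855 CPM (2773 to 2938) in neutrophils with 51.4% positive, at 49.9 CPM in macrophages with 64 of 1570 positive (4.08%) and at 0.550 CPM in T cells. In neutrophils with T cell counts (19) it was 1675 CPM and in those without (119) 3302 CPM. Among macrophages 42.5% of all Cxcl3 counts lay in the 166 cells with Arg1 and no Cxcl9, at 393.7 CPM with 20.5% positive. Of the 64 Cxcl3-positive macrophages 59.4% had Arg1, against 13.1% of the others, 79.7% had Il1b, against 49.9%, and 10.9% had the neutrophil gene S100a8, against 2.46%. In macrophages of the 6 hashtags it ranged over 2.11, 30.4 and 182.3 CPM, and A0306 was the highest. Over the 20 clusters the genes most like Cxcl3 were Slfn4, Csf3 (both r = 0.98) and Mmp8 (0.97), all highest in the neutrophil cluster. The Cxcl3 promoter (RefSeq GRCm38.p6, chr5:90785851-90786150, plus strand) is the only one of the 7 available with the kappa B letters, which 0.4% of promoters hold, and is shown for that reason.
Cxcl3: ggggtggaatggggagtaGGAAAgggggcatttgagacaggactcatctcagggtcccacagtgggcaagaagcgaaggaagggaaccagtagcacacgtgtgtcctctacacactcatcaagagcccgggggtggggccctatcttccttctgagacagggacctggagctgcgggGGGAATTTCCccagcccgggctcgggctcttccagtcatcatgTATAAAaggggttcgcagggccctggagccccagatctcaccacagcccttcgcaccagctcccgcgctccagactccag
Capitals mark GGAAA at position -232, the kappa B match at -73, which overlaps a GGAAA on the minus strand at -68, and TATAAA at -30. A match of letters is a description and shows no binding.

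Counts of T cell genes in myeloid barcodes moved with some of the chemokines and not with others. Macrophage barcodes with T cell counts were deeper than those without (median 85958 against 42239 counts), and passing the limit of 5 counts depends on depth. In macrophages with T cell counts against those without, Ccl5 was 1872 against 174.8 CPM, Xcl1 63.9 against 0.639 CPM and Ccl1 6.68 against 0 CPM. Ccl3 was 505.6 against 432.2 CPM, Ccl4 1102 against 1075 CPM, Cxcl3 50.4 against 47.9 CPM and Cxcl13 84.3 against 97.8 CPM. Ccl2 was 801.6 against 1542 CPM and Ccl8 819.4 against 2010.5 CPM. So the macrophage levels of Ccl3 and Ccl4 were close in barcodes without T cell counts, and those of Xcl1 and Ccl1 were near 0 there. In the T cell class, barcodes with macrophage or melanoma counts against those without held 444.5 against 329.5 CPM of Ccl3, 150.4 against 120.1 CPM of Xcl1, 2185 against 3019.5 CPM of Ccl5 and 14.3 against 4.99 CPM of Ccl8.

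**Figure D5:**
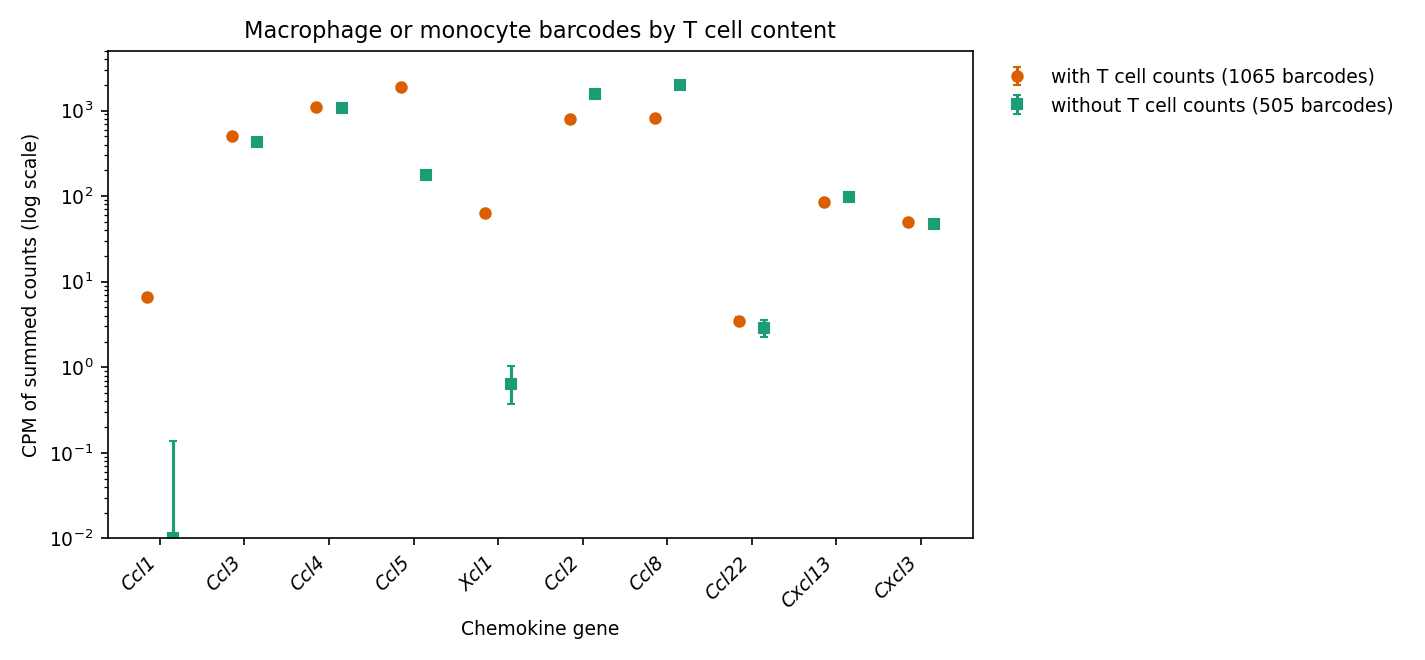
CPM of each chemokine gene on a log scale in macrophage or monocyte barcodes with T cell counts (circles, 1065) and without (squares, 505), with exact Poisson 95% intervals of the counts; a level of 0 is drawn at the bottom of the axis. The squares of Ccl1, Ccl5 and Xcl1 lie far below the circles, those of Ccl3, Ccl4, Cxcl13 and Cxcl3 lie close to them, and those of Ccl2 and Ccl8 lie above. Median counts per barcode were 85958 with T cell counts and 42239 without.

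The receptors of these ligands lay in partly different classes. Ccr1, a receptor of Ccl3 and Ccl5, stood at 1379 CPM in neutrophils and 4.46 CPM in T cells. Xcr1 was at 57.1 CPM in macrophages and 52.5 CPM in dendritic cells, Ccr2 at 680.0 CPM in gamma delta T cells and 548.6 CPM in dendritic cells, and Cxcr2 at 818.7 CPM in neutrophils. Cxcr2, Xcr1 and Ccr2 were also among the markers used to name the neutrophil, dendritic and macrophage classes. Their levels by class are therefore in part set by that naming. Ccr8, Ccr4 and Cxcr5, the receptors of Ccl1 and Ccl8, of Ccl22 and of Cxcl13, stood at 11.1, 4.34 and 4.49 CPM in T cells. Ccr8 was highest among the T cell states at 60.4 CPM in non-cycling Foxp3-positive CD4 cells. Of the 23 chemokine receptors listed, 12 were examined between T cells and macrophages, of which 3 were called higher in T cells (Ccr8, Cxcr3 and Cxcr4), where 8.05% of all genes examined were, and 4 lower, where 11.4% were, among them Ccr1, Ccrl2 and Cx3cr1. Of 27 other chemokines, 12 were examined and all 12 were lower in T cells, with a median log2 ratio of -6.29, among them Cxcl2 at 25.2 CPM in T cells against 2781 CPM in macrophages and Ccl7 at 5.18 against 854.3 CPM.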

How the data were processed

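The deposited mRNA table held whole-number counts per gene and barcode, and a second deposited table held counts per hashtag and barcode, per the file headers. Per the submitters' processing notes the authors used cutadapt 2.10, Bowtie2 2.3.4.1 and 2.4.2, R 3.5.3 and GRCm38, with no step or role given. The sources used here do not say whether counts are molecules. Of values above 0, 56.1% exceeded 5 and the median was 7, so they were handled as reads. The chemokine genes and all lists were chosen with earlier results of these data known.

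Barcodes with at least 500 genes and at most 25% mitochondrial counts were kept. They were clustered with scanpy 1.11.5 (Python 3.11.15) on 3000 variable genes without the 40 chemokine genes, with 40 principal components, 20 neighbours and Leiden resolution 1. Cluster names needed a share of their markers at 5 or more counts in over 20% of cells, by a rule set after the clusters were seen. Scrublet called 1 doublet, which shows that it had not worked, so doublets stayed in and were handled by leaving out barcodes of mixed content or the top 5% of scores. Hashtags were called at a log-likelihood gain of at least 3 over the mixture of hashtags on barcodes outside the mRNA table. The same margin to the next hashtag was needed.

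For each comparison counts were summed per hashtag and cell group with at least 30 cells on both sides, 5 counts were added, and CPM ratios were taken on the log2 scale. Where fewer than 2 hashtags qualified, all cells were pooled, which gives 1 sample a group. A gene was examined at a mean of 100 counts per sum, and called when every hashtag had the same sign and the median was at least 1 in size. The rule was tested on simulated data. Named genes were the 10 chemokines, their receptors and the 3 genes most like each over the clusters. The floor for a group at or near 0 was 30 counts summed over the group. Overlap between groups is described by the values only, and no share of all genes without overlap is given. Genes with the same sign in every hashtag made up 64.6% for dendritic cells against macrophages and 52% for Havcr2 against Tcf7. The share was 40.1% for the Foxp3 comparison and 23.8% for CD8 against CD4 cells. No count model was fitted and no p-value is given, since the labels do not map the hashtags of the 1 capture to samples. No genotype comparison was possible with hashtags of unknown genotype. For the same reason the deletion of Nr4a1 and Nr4a2 could not be checked in labelled samples.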

Additional observations from a re-analysis of the deposited data

Results flagged for a closer look

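Among 30 groups of 5 or 6 hashtags, 6 held a hashtag far from the others by Dixon's 95% limit. Chance gives about 1 group in 20 for independent, normally distributed values. These groups share hashtags and some values lie near the floor, so that rate need not hold here and no excess is claimed. In T cells Ccl3 stood at 1307 CPM in A0303, against 529.9 CPM in the next highest hashtag and a median of 377.9 CPM. In macrophages Ccl2 stood at 2680.0 CPM in A0302, against 1254 CPM in the next, and Cxcl3 at 182.3 CPM in A0306, against 51.6 CPM in the next. In melanoma cells Ccl5 stood at 425.7 CPM in A0304, against 123.0 CPM in the next. Near the floor, Ccl22 stood at 0.482 CPM in T cells of A0301, against 0.122 CPM in the next, and Cxcl3 at 4.84 CPM in melanoma cells of A0301, against 0.418 CPM in the next. What sets these hashtags apart was not tested, since their genotypes are not known here.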

How the results depend on the processing

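Numbers of chemokine genes called stayed within 1.5 times of those reported in 159 of the recomputed summaries and moved further in 17. The share of all genes called under the same setting stands in brackets. Thinned to 10000 counts per cell, 1 of 3 genes examined was called for Tcf7-positive cells with Pdcd1 against those without (8.56%), 1 of 4 for Foxp3-positive against Foxp3-negative cells (9.07%) and 5 of 7 for Cxcl9-positive against Arg1-positive macrophages (7.1%). At a gate of 1 count the Foxp3 comparison gave 1 of 4 (7.92%), and without the top 5% of doublet scores the Pdcd1 comparison gave 1 of 4 (9.48%). Without barcodes of mixed content, 8 of 8 were called for dendritic cells against macrophages (28.5%) and 5 of 7 for the macrophage states (17.3%). With 10 cells per hashtag the Pdcd1 comparison gave 1 of 3 (6.29%), the Tnfsf11 or Penk comparison 1 of 3 (5.89%) and the Foxp3 comparison 0 of 3 (5.51%), by the call rule, which is no test. With all cells pooled dendritic cells against macrophages gave 8 of 10 (16%) and CD8 against CD4 cells 7 of 8 (9.56%), with 50 counts added the Foxp3 comparison gave 1 of 4 (4.36%), and with no filter on low counts Havcr2-positive against Tcf7-positive cells gave 9 of 10 (55.8%).

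Leaving out 1 hashtag at a time gave 6 to 7 calls for T cells against macrophages, 8 to 8 for dendritic cells against macrophages (1 hashtag left, so all remaining cells were pooled), 4 to 4 for Havcr2 against Tcf7, 2 to 3 for Pdcd1, 3 to 4 for CD8 against CD4, 2 to 3 for Foxp3, 3 to 4 for Tnfsf11 or Penk and 3 to 5 for the macrophage states. Among ratios called in either setting, directions turned for Ccl3 in the Foxp3 comparison when thinned (0.094), for Ccl8 between the macrophage states when thinned (1.08) or with 1 hashtag left out (0.63 to 1.11, the higher without A0301), and for Ccl8 in the Pdcd1 comparison at a gate of 1 (1.05). Without barcodes of mixed content they turned for Ccl5 in dendritic cells against macrophages (1.06), for Ccl4 in the Pdcd1 comparison (-1.07) and for Ccl3 in CD8 against CD4 cells (-0.13). The cause was not tested. Ratios not called in the main setting also changed sign over the settings tried, namely those of Ccl3 (-1.005 to 1.71) and Ccl4 (-2.20 to 0.52) in the Tnfsf11 or Penk comparison, Ccl1 in CD8 against CD4 cells (-2.63 to 0.34), Ccl4 in the Foxp3 comparison (-1.94 to 0.61) and between the macrophage states (-0.57 to 0.28), and Cxcl13 in T cells against macrophages (-5.65 to 0.015), and under further settings those of Ccl4 in the Pdcd1 comparison and of Ccl8 between the macrophage states. Some of these were called at an end of their range, as Ccl3 at a gate of 1 (1.71), Ccl4 at a gate of 10 (-2.20) and, with all cells pooled, Ccl1 (-2.63) and Cxcl13 (-5.65). The leading class of each gene was the same for 10 of 10 genes under all settings tried except Leiden resolution 0.5 (8, with Ccl2 and Cxcl13 led by macrophages) and without mixed barcodes (9). Every ratio was taken within a hashtag where more than 1 qualified, which pairs the cell groups, and no test was run on these pairs. Few hashtag counts per cell, small classes and mixed barcodes limit these values.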
